A study of Homo sapiens with 6 samples.

Results

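The tetraspanin family was examined in MDA-MB-453 cells, an established human breast cancer cell line, after culture with 25(OH)D or its solvent. Members were the rows of the count table named TSPAN and a number, together with CD9, CD37, CD53, CD63, CD81, CD82, CD151, UPK1A, UPK1B, PRPH2 and ROM1. This gave 29 genes of the 33451 in the table. GENCODE 29 holds 33 genes that fit the rule, and the 4 without a row (TSPAN2, TSPAN19, TSPAN32 and UPK1B) were not analysed here. The rule takes members by name and not by their values. The family, the lists of related genes and the markers were, however, chosen with earlier results of these data known. The control group was cultured with the solvent, alcohol, and the other group in 100 nM 25(OH)D, the main circulating form of vitamin D. Both groups were kept in the same medium with fetal bovine serum for 5 days, with 3 libraries of stranded mRNA in each group and no genetic change in either. A single cell line served as the model for both groups.

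Tetraspanins are small proteins that cross the membrane several times and expose a short and a long extracellular loop, the long one held by conserved cysteine pairs. They seldom act as receptors for ligands. They gather integrins, proteases, adhesion molecules and each other into membrane microdomains, steer their partners through endosomes, and several of them are standard markers of extracellular vesicles. In epithelial tumours the family is best known for CD82, first described as a suppressor of metastasis, and for CD151, a partner of the integrins that bind laminin.

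The 6 libraries held between 33268860 and 40928176 counts, of which tetraspanin genes took 0.0716% to 0.0723% in control and 0.0975% to 0.1002% in 25(OH)D. Genes of the mitochondrial genome took 7.85% to 7.99% in control and 8.89% to 9.24% in 25(OH)D. With these genes left out of the table, no call on a tetraspanin gene changed. The first principal component, with 64.84% of the variance of all genes tested, separated the groups. The label of the cell line was checked with 10 markers of luminal and apocrine breast cancer, among them KRT8, EPCAM and ERBB2, and the summed level of these was 4806 to 4902 CPM (counts scaled to a common library total) in control and 5265 to 5323 CPM in 25(OH)D. The markers did not move as one. KRT7 rose with a log2 fold change of 0.88, whereas GATA3 went from 261.8 ± 3.54 to 150.8 ± 3.68 CPM (SD, n = 3 each; log2 fold change -0.80, adjusted p = 8.56e-10) and FOXA1 fell with -0.46 (adjusted p = 1.51e-05, both by the quasi-likelihood test described next). The lowest of the 10 was PIP, at between 4.13 and 4.63 CPM over the 6 libraries. The 5 basal or myoepithelial markers summed to at most 1.51 CPM and the 4 endothelial markers with a row to at most 1.04 CPM in any library. The 5 fibroblast markers had a summed level of 36.8 to 39.9 CPM in control and 31.6 to 33.9 CPM in 25(OH)D, nearly all of it COL1A1.

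Of the 29 tetraspanin genes, 20 passed the low-count filter and 9 did not. Of the 20, 19 had at least 10 counts in all 6 libraries, the exception being TSPAN11. Each of the 20 was tested for a difference between 25(OH)D and control with the quasi-likelihood test of edgeR, and p-values were adjusted by the method of Benjamini and Hochberg over all 18183 genes tested. At an adjusted p under 0.05, 10 members were higher in 25(OH)D, 3 were lower and 7 did not pass. Among all genes tested, 17.3% were higher and 16.5% lower by the same rule, 33.8% in either direction. Genes with more reads pass more readily, and most of the tested members were well expressed. Among the 16 members with a mean of at least 5 CPM, 10 were higher and 2 lower, against 22.8% and 22% of the 11179 genes at that level, 44.8% in either direction. The median log2 fold change of the 20 tested members was 0.30, against -0.011 for all genes tested, and the median of its size was 0.49 against 0.23. At the limits the study drew, an absolute log2 fold change over 1 with an unadjusted p under 0.05, 4 members (CD82, ROM1, TSPAN1 and TSPAN4) were higher and 1 (TSPAN9) was lower, against 4.02% and 2.63% of all genes and 6.65% in either direction. No overlap between the groups was seen in 13 members, the same 13 that passed the test, against 45.7% of all genes. In bulk RNA, a change in the number of cells that carry a transcript and a change of its amount in each cell cannot be told apart.

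**Figure D1:**
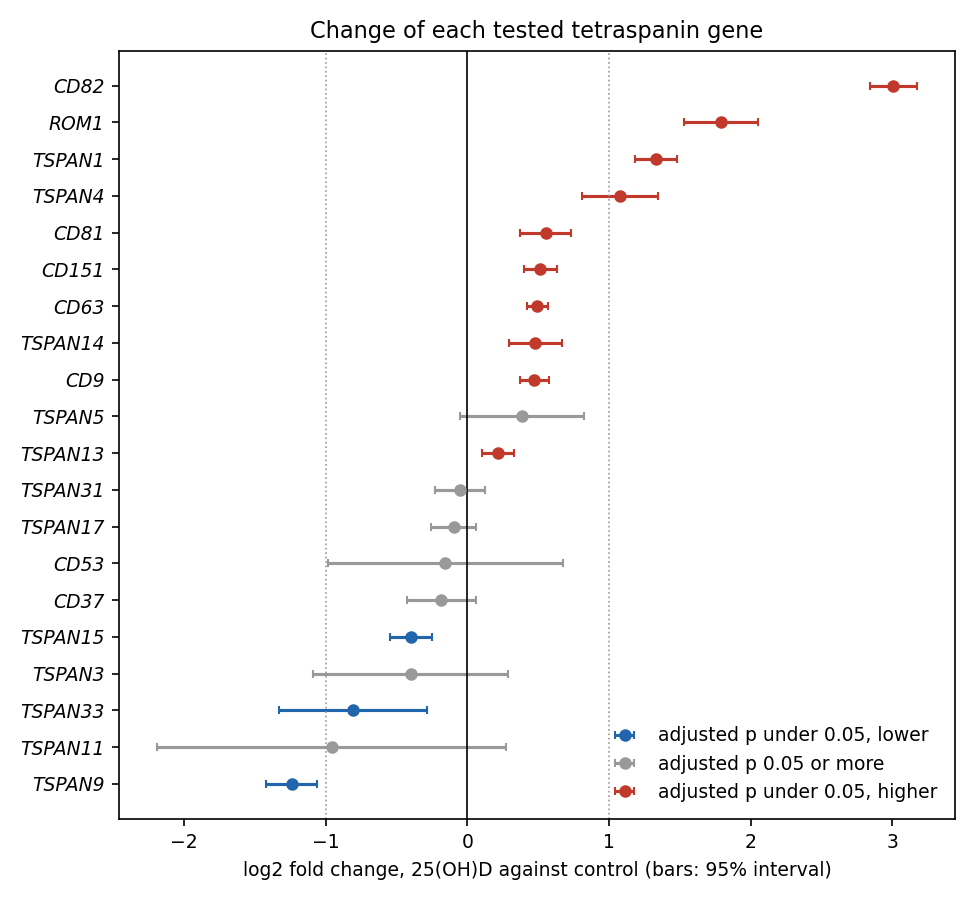
Log2 fold change of 25(OH)D against control for the 20 tested tetraspanin genes, with points for the estimate, bars for the 95% interval and dotted lines at the limits of 1 and -1. CD82 stands apart at 3.01, 9 other genes are marked higher, and TSPAN9, TSPAN33 and TSPAN15 are marked lower.

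Levels of different members were compared per length, as deposited RPKM. Length here is the number of all exon bases of a gene, such as 17888 for TSPAN14, 7394 for CD81 and 2633 for CD63. Ranks between genes depend on these lengths. CD63, a tetraspanin of late endosomes and lysosomes, was the most abundant, at 93.6 ± 0.805 RPKM in control and 128 ± 3.74 RPKM in 25(OH)D (SD, n = 3 each). CD9, a tetraspanin of the cell surface, followed with 44.5 ± 2.49 and 60.0 ± 1.24 RPKM. Together both genes held 59.7 ± 0.494% of all tetraspanin RPKM in control and 59.3 ± 0.668% in 25(OH)D (SD, n = 3 each), a difference smaller than either SD, while the summed RPKM of the family went from 231.3 ± 1.14 to 317.1 ± 3.28. Below them the order changed. CD82 ranked 10 in control, at 3.06 ± 0.371 RPKM, and 4 in 25(OH)D, at 23.9 ± 0.521 RPKM, where it lay between TSPAN13 (26.2 ± 0.895 RPKM) and TSPAN1 (20.2 ± 1.17 RPKM). TSPAN15 ranked 3 in control at 25.2 ± 0.436 RPKM, above TSPAN13 at 23.3 ± 0.793 RPKM, and 6 in 25(OH)D at 18.5 ± 2.02 RPKM. In control, CD81 (1.65 ± 0.111 RPKM) and ROM1 (1.64 ± 0.246 RPKM) lay within each other's spread. The spreads of TSPAN5 (1.26 ± 0.366 RPKM), TSPAN14 (1.20 ± 0.112 RPKM) and TSPAN4 (1.06 ± 0.198 RPKM) overlapped. TSPAN9 went from rank 8 to rank 14 of the 29 and ROM1 from rank 13 to rank 8.

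**Figure D2:**
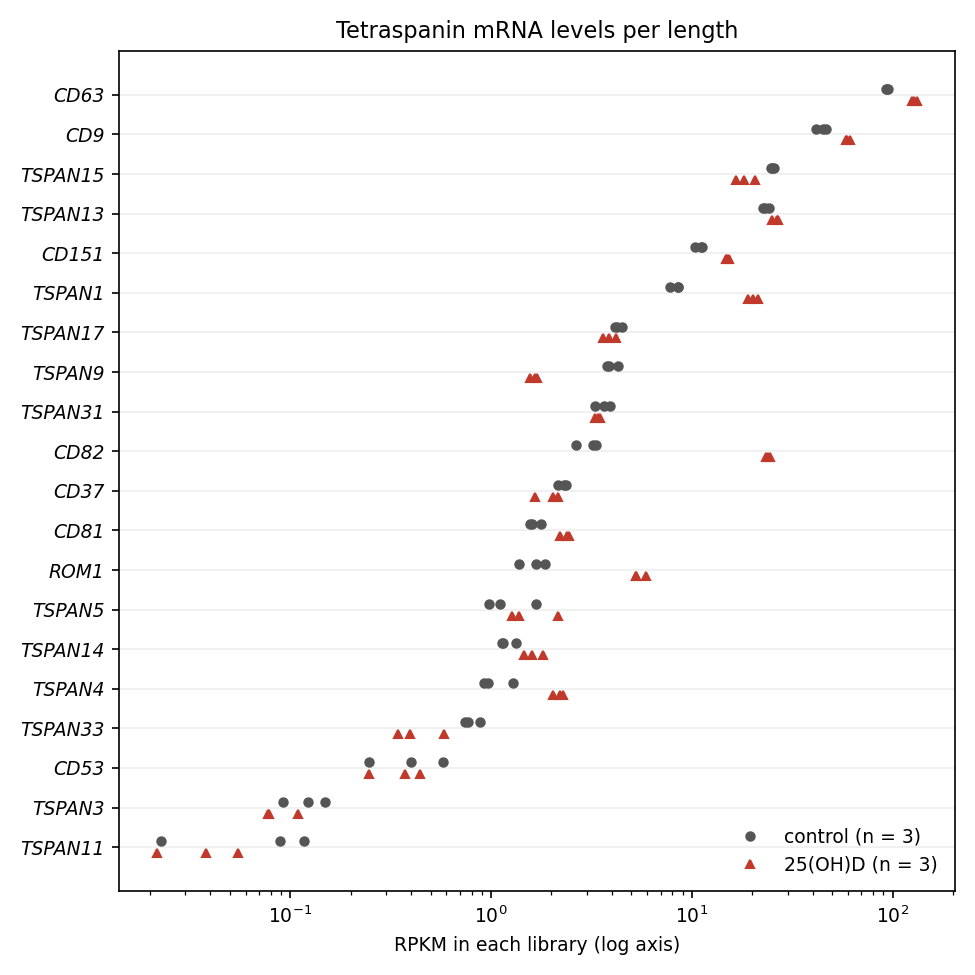
RPKM of the 20 tested tetraspanin genes in each library on a log axis, ordered by the control mean, with circles for the 3 control libraries and triangles for the 3 libraries of 25(OH)D. CD63 lies at about 93 to 94 RPKM in control and 125 to 132 RPKM in 25(OH)D, and CD82 moves from about 3 to about 24 RPKM.

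CD82 (chromosome 11, 44564427 to 44620363, plus strand of GRCh38), which restrains integrin and growth factor receptor signalling, changed most of the tested members. The control libraries held 13.3, 10.5 and 12.9 CPM, and the 25(OH)D libraries held 96.7, 97.5 and 101 CPM. The lowest 25(OH)D library was far above the highest control library. The rise was 8.04-fold, a log2 fold change of 3.01 (standard error, SE, 0.0768; adjusted p = 8.95e-13, quasi-likelihood test of edgeR), and it stayed between 2.92 and 3.08 with each library left out in turn. Of its exon bases, 280 lie on the strand opposite to exons of RP11-58K22.5, an uncharacterised gene, which went from 2.11 ± 0.430 to 14.9 ± 0.336 CPM (SD, n = 3 each). The libraries were stranded, but whether strand was used in counting is not given in the sources used here, so reads in these shared bases cannot be assigned to one of both genes. In all, 14 members share exon bases with a gene on the opposite strand, among them CD63 (237 bases), TSPAN14 (235), CD81 (30), TSPAN3 (264) and TSPAN11 (141), and TSPAN7 shares 676 with a gene on the same strand.

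ROM1 (chromosome 11, 62611722 to 62615120, plus strand) encodes a tetraspanin that joins peripherin-2 at the rims of photoreceptor discs. Its level was 3.36, 4.12 and 4.59 CPM in the control libraries and 13.4, 14.8 and 13.5 CPM in the 25(OH)D libraries. All 3 libraries of 25(OH)D lay above those of control, and the log2 fold change was 1.79 (SE 0.121, adjusted p = 3.80e-08, same test). ROM1 shares 618 exon bases with EML3 on the opposite strand, which was higher too, with a log2 fold change of 0.70. PRPH2, which encodes peripherin-2, had at most 3 counts in any library, so the partner was not detectable above a few reads. The 3 photoreceptor markers had a summed level of 33.5 to 35.1 CPM in control and 35.2 to 42.4 CPM in 25(OH)D, nearly all of it NRL, while CRX had at most 3 counts in every library.

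TSPAN1 (chromosome 1, 46175073 to 46185958, plus strand), a tetraspanin of epithelial cells, was at 19.8, 18.1 and 20.1 CPM in control and at 51.6, 48.1 and 46.1 CPM in 25(OH)D. The groups were well apart, with a log2 fold change of 1.33 (SE 0.0682, adjusted p = 1.93e-09, same test). TSPAN4 (chromosome 11, 842808 to 867116, plus strand), which marks migrasomes, the vesicles left on retraction fibres by moving cells, was at 5.31, 7.40 and 5.62 CPM in control and 12.1, 13.4 and 13.2 CPM in 25(OH)D. Control replicate 2 was the highest of its group but still below every 25(OH)D library. Its log2 fold change of 1.08 (SE 0.124, adjusted p = 9.62e-06, same test) lay close to the limit of 1, and without control replicate 1 it was 0.99.

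TSPAN9 (chromosome 12, 3077355 to 3286564, plus strand), known from platelets and their precursors, was the member that fell most. Its level was 21.8, 21.3 and 24.2 CPM in the control libraries and 9.07, 9.49 and 9.94 CPM in the 25(OH)D libraries. The log2 fold change was -1.24 (SE 0.0833, adjusted p = 3.64e-08, same test), and it stayed between -1.27 and -1.18 with each library left out in turn. TSPAN9 shares no exon base with another gene of the table.

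**Figure D3:**
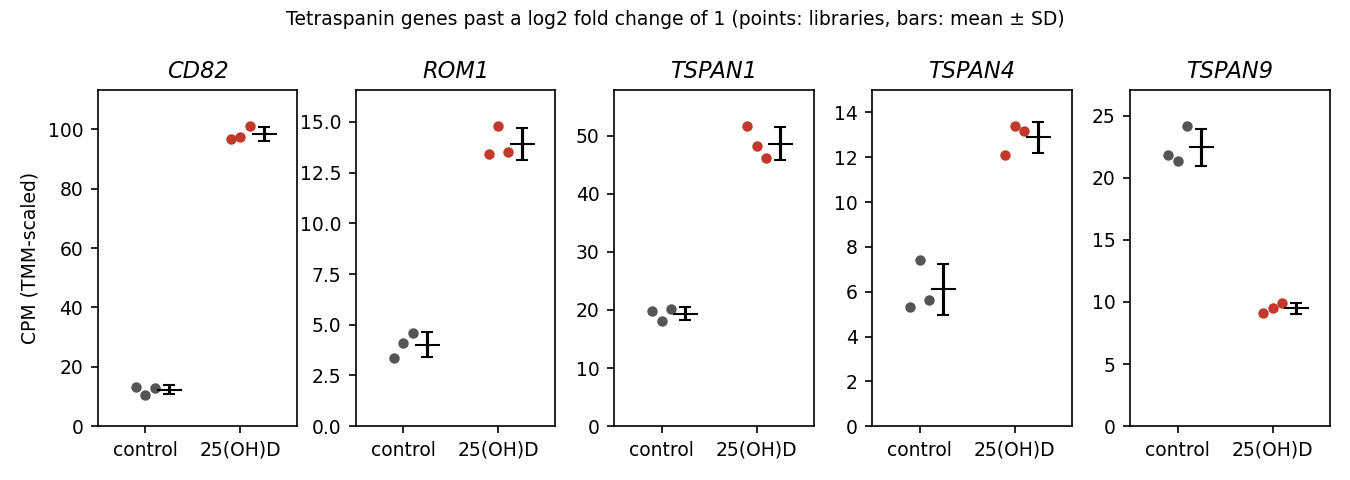
CPM, scaled by TMM factors, of the 5 tetraspanin genes past an absolute log2 fold change of 1, with a point for each library and bars for the mean and SD of 3 libraries. CD82, ROM1, TSPAN1 and TSPAN4 are higher in each 25(OH)D library than in any control library, and TSPAN9 is lower.

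The sequences before the start sites of these genes are shown because 4 of the 5 rose together. Of the 5, CD82, ROM1, TSPAN1 and TSPAN4 matched the promoter table of RefSeq (GRCh38.p14), and TSPAN9 is named only. Each line gives the 250 bases before the RefSeq start, 5′ to 3′ on the plus strand, for TSPAN4 the first of 5 starts. Capitals mark the GC box, GGGCGG on either strand, and the half-site of nuclear receptors, AGGTCA on either strand, and the marked motifs do not overlap. The windows are chr11:44565413-44565662 for CD82, chr11:62613007-62613256 for ROM1, chr1:46174837-46175086 for TSPAN1 and chr11:842602-842851 for TSPAN4.
CD82: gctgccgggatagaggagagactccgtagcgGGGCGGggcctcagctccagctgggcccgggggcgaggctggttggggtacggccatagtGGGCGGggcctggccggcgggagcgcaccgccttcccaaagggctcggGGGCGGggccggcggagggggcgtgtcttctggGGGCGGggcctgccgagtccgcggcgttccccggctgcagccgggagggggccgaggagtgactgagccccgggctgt
ROM1: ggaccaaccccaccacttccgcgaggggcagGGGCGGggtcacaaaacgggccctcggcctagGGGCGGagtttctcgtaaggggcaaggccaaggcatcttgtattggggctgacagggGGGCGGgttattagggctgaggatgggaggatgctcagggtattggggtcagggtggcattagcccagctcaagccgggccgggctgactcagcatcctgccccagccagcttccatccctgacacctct
TSPAN1: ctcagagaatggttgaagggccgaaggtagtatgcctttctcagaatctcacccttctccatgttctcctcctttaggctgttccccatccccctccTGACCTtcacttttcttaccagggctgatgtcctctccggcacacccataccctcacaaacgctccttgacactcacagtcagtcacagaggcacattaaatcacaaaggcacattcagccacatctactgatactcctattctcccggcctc
TSPAN4: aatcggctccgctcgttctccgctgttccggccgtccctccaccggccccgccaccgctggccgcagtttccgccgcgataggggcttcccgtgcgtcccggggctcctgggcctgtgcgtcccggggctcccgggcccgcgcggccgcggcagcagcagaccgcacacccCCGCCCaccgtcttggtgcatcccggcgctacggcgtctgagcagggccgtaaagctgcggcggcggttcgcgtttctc
The CD82 window held 4 GC boxes and 77.2% G and C, the ROM1 window 3 GC boxes and 64.4%, the TSPAN4 window 1 GC box and 74.8%, and the TSPAN1 window no GC box and 51.2%, against a median of 58% over all windows of the table. GC boxes occurred in 42.6% of the 35116 windows of this length. Of the 33 windows of the 15 tested members with an entry, 24 held a GC box, among them windows of TSPAN15 and TSPAN33, which fell. The half-site occurred in the TSPAN1 window alone of the 4, and in 12.1% of all windows. Among the 33 member windows it occurred in 6, from CD63, TSPAN1, TSPAN11, TSPAN14 and TSPAN17. A repeat of AGGTCA in the same direction with 3 bases between the copies is a form that the vitamin D receptor binds with its partner RXR. Searched as this exact string on both strands, it occurred in none of the 33 windows of the 15 tested members with an entry. It occurred in only 2 of all 35116 windows (0.0057%), so its absence from 33 says nothing about sites of the receptor in them. Copies that differ from AGGTCA were not searched. Letters in windows this short also say nothing about binding elsewhere.

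The tetraspanins used as markers of extracellular vesicles, CD9, CD63 and CD81, rose together by smaller folds. CD63 (chromosome 12, 55725323 to 55729707, minus strand) was at 244, 242 and 242 CPM in control and 342, 350.3 and 335 CPM in 25(OH)D. Its groups were tight and apart, with a log2 fold change of 0.50 (SE 0.0358, adjusted p = 8.26e-08, same test). CD9 (chromosome 12, 6199715 to 6238271, plus strand) was at 135, 147 and 152 CPM in control and 198, 198 and 207 CPM in 25(OH)D, a log2 fold change of 0.47 (SE 0.0469, adjusted p = 2.14e-06). CD81 (chromosome 11, 2376177 to 2397419, plus strand), a tetraspanin of the surface of most cells, was at 11.4, 12.9 and 11.7 CPM in control and 16.7, 17.9 and 18.4 CPM in 25(OH)D. Its log2 fold change was 0.55 (SE 0.0838, adjusted p = 1.27e-04). The 95% intervals of the 3 log2 fold changes overlapped, from 0.42 to 0.57 for CD63, 0.37 to 0.57 for CD9 and 0.37 to 0.74 for CD81.

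A list of 32 genes of vesicle formation, release and cargo was read beside them, and all 32 were tested. Of these, 10 were higher, 2 were lower and 20 did not pass, with a median log2 fold change of 0.017. The shares were 31.2% higher and 6.25% lower, against 17.3% and 16.5% of all genes tested and 22.8% and 22% of those of at least 5 CPM. In either direction the share was 37.5%, against 33.8% of all genes tested and 44.8% of those of at least 5 CPM. The members with the smallest p among those that rose were ANXA2, a membrane-binding annexin, with a log2 fold change of 0.80 (SE 0.0396, adjusted p = 1.34e-09), PDCD6IP, which encodes the ESCRT accessory protein ALIX, with 0.33 (SE 0.0414, adjusted p = 2.52e-05), and PLD2, a phospholipase D, with 0.93 (SE 0.139, adjusted p = 1.13e-04), all from the same test. RAB27B, a GTPase of secretory vesicle docking, fell with -0.55 (adjusted p = 1.11e-05), while its relative RAB27A, named after its value was seen, rose with 0.42 (adjusted p = 5.07e-04). TSG101, an ESCRT-I subunit, fell with -0.18 (adjusted p = 0.0124), a call lost without 25(OH)D replicate 1 (adjusted p = 0.0661) and without control replicate 2 (adjusted p = 0.0512). With library sizes alone or upper-quartile factors the number of lower members was 4, and it was 1 without control replicate 2 and without 25(OH)D replicate 1.

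CD151 (chromosome 11, 832843 to 839831, plus strand), which binds integrins for laminin directly, was at 43.4, 40.1 and 43.1 CPM in the control and 61.8, 59.4 and 59.7 CPM in the 25(OH)D libraries. The groups did not overlap, and the log2 fold change was 0.51 (SE 0.0543, adjusted p = 4.09e-06, same test). CD151 shares 257 exon bases with POLR2L and 41 with AP006621.8 on the opposite strand, and both of these were higher, with log2 fold changes of 0.25 and 1.31. The subunits of laminin-binding integrins did not move as one. ITGA6 fell from 89.9 ± 10.0 to 62.5 ± 4.10 CPM (log2 fold change -0.53, adjusted p = 6.46e-05) and ITGB4 from 20.1 ± 1.22 to 13.9 ± 0.268 CPM (log2 fold change -0.53, adjusted p = 9.79e-05; SD, n = 3 each). ITGB1, the common β subunit, rose by a log2 value of 0.13 (adjusted p = 0.0243), a call lost in 2 of 6 fits without 1 library and 4 of 12 other alternatives. ITGA3 fell with a log2 value of -0.12 (adjusted p = 0.0428), a call lost in 6 of 6 and 5 of 12 of these, and ITGA7 did not pass, with -0.20 (adjusted p = 0.738). ITGB1, ITGA3 and ITGA7 were named after their values were seen.

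ITGA6 and ITGB4 belong to a list of 30 membrane proteins known to associate with tetraspanins, of which 20 were tested. Of these, 5 were higher, 5 were lower and 10 did not pass, with a median log2 fold change of -0.061. That is 25% in each direction, against 17.3% higher and 16.5% lower among all genes tested and 22.8% and 22% among those of at least 5 CPM. The next lower member by p was IGSF3, an immunoglobulin superfamily protein, with -0.37 (SE 0.0546, adjusted p = 1.06e-04, same test). The higher members with the smallest p were GGT1, a γ-glutamyl transferase, with a log2 fold change of 2.36 (SE 0.111, adjusted p = 7.13e-10), CD46, a complement regulator, with 0.60 (SE 0.0361, adjusted p = 1.04e-08), and CLDN7, a claudin, with 0.90 (SE 0.0748, adjusted p = 3.47e-07). GGT1 has close copies in the genome, and its reads may be shared with them. The direct partners of CD9 and CD81, IGSF8 and PTGFRN, were named after their values were seen and went opposite ways. IGSF8 rose with a log2 value of 0.33 (adjusted p = 5.03e-04), and PTGFRN fell with -0.31 (adjusted p = 0.00288). CD44, not tested, had at most 8 counts in any library.

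The TspanC8 tetraspanins (TSPAN5, TSPAN10, TSPAN14, TSPAN15, TSPAN17 and TSPAN33) carry the protease ADAM10 to the surface, each with its own preference for substrates. They split in direction. TSPAN14 (chromosome 10, 80454166 to 80533123, plus strand) was at 20.2, 23.5 and 20.02 CPM in control and 29.3, 32.8 and 26.8 CPM in 25(OH)D, and rose with a log2 fold change of 0.48 (SE 0.0871, adjusted p = 5.99e-04, same test). TSPAN15 (chromosome 10, 69451473 to 69507669, plus strand), the member most tied to the shedding of N-cadherin, was at 66.7, 65.0 and 65.1 CPM in control and 45.0, 48.6 and 55.9 CPM in 25(OH)D. It fell with a log2 fold change of -0.40 (SE 0.0689, adjusted p = 4.22e-04, same test), and 25(OH)D replicate 3 was the nearest to control.

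TSPAN33 (chromosome 7, 129144892 to 129169697, plus strand) had little coverage, with 84, 90 and 77 counts in control and 34, 62 and 36 in 25(OH)D. The groups did not overlap, and the log2 fold change was -0.81 (SE 0.241, adjusted p = 0.0186, same test). This call was lost without 25(OH)D replicate 1 (adjusted p = 0.0761), without 25(OH)D replicate 3 (adjusted p = 0.0552) and without control replicate 2 (adjusted p = 0.0734). TSPAN5 was at 12.2, 8.14 and 7.22 CPM in control and 9.59, 10.3 and 16.4 CPM in 25(OH)D, so that 1 library of each group stood above its others and the groups overlapped. Its log2 fold change was 0.39 (95% interval -0.052 to 0.82, adjusted p = 0.169), and without control replicate 1 it was 0.65 (adjusted p = 0.0155). TSPAN17 was at 21.8, 23.0 and 21.5 CPM in control and 19.1, 22.2 and 20.7 CPM in 25(OH)D, with overlapping groups and a log2 fold change of -0.096 (95% interval -0.26 to 0.065, adjusted p = 0.3601), and TSPAN10 did not pass the filter, with 6, 8 and 8 counts in control and 0, 0 and 11 in 25(OH)D.

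Per length, TSPAN15 made up most of the summed TspanC8 RPKM in both groups. It held 76.8 ± 0.907% in control and 70.9 ± 1.34% in 25(OH)D (SD, n = 3 each), with no overlap between the groups. These shares depend on the exon lengths used, 17888 bases for TSPAN14 and 2646 for TSPAN15. In CPM, which are not divided by length, TSPAN15 was at 65.6 and TSPAN14 at 21.2 in control. In 25(OH)D the means were 49.8 and 29.6 CPM. TSPAN14 held 3.68 ± 0.333% in control and 6.30 ± 1.03% in 25(OH)D, and TSPAN5 held 3.82 ± 1.02% and 6.05 ± 1.28%. The summed TspanC8 RPKM was 31.9 to 33.5 in control and 23.5 to 28.7 in 25(OH)D. ADAM10 itself, named as their common partner after its value was seen, was at 123 ± 1.57 CPM in control and 148 ± 3.98 CPM in 25(OH)D (SD, n = 3 each) and rose by a log2 value of 0.27 (SE 0.0408, adjusted p = 1.38e-04, same test).

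**Figure D4:**
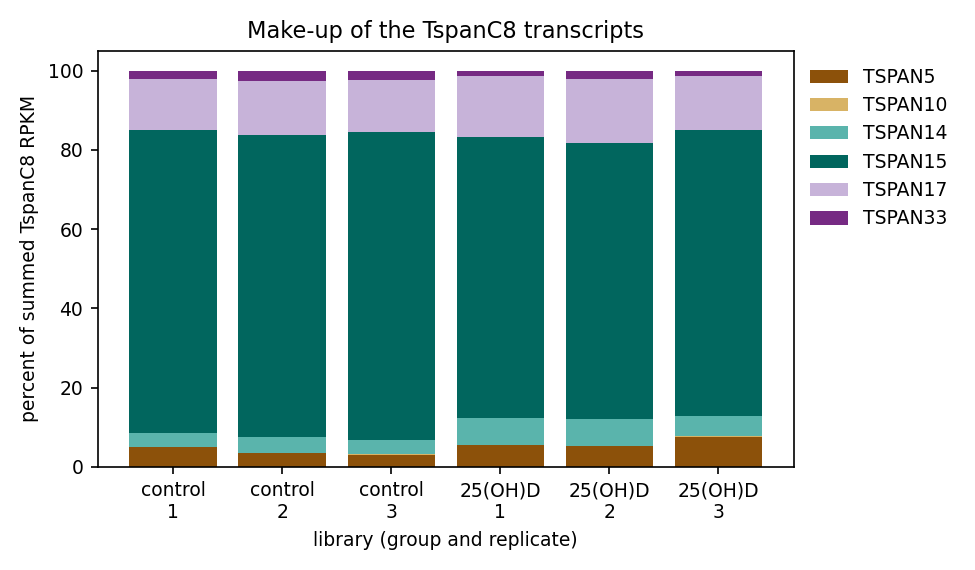
Share of each of the 6 TspanC8 genes in their summed RPKM, in percent, in each of the 6 libraries. TSPAN15 takes 76.1% to 77.8% in control and 69.5% to 72.2% in 25(OH)D. The mean shares of TSPAN14, TSPAN5 and TSPAN17 are higher in 25(OH)D, although the mean RPKM of TSPAN17 was 4.30 in control and 3.90 in 25(OH)D.

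Of 19 genes listed as ADAM10, its relative ADAM17, and partners or proteins cut by ADAM10, 17 were tested, of which 7 were higher, 2 lower and 8 did not pass, with a median log2 fold change of 0.25. The shares were 41.2% higher and 11.8% lower, against 17.3% and 16.5% of all genes tested and 22.8% and 22% of those of at least 5 CPM. ALCAM, an adhesion molecule shed from the surface, rose with a log2 value of 0.82 (SE 0.0338, adjusted p = 1.78e-10), the amyloid precursor gene APP with 0.83 (SE 0.0352, adjusted p = 2.14e-10) and the receptor NOTCH2 with 0.84 (SE 0.0598, adjusted p = 7.30e-08), all by the same test. CDH2, which encodes N-cadherin, was at 8.60 ± 0.597 CPM in control and 3.03 ± 0.186 CPM in 25(OH)D (SD, n = 3 each) and fell with a log2 value of -1.50 (SE 0.125, adjusted p = 3.74e-07). NOTCH3 fell with -0.39 (SE 0.0623, adjusted p = 2.09e-04).

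CD37 and CD53, tetraspanins of leukocytes, were both detected and neither passed the test. Per length, CD37 ranked 11 in control and CD53, which was low, ranked 18. CD37 was at 9.41, 8.83 and 9.72 CPM in control and 6.998, 8.50 and 9.15 CPM in 25(OH)D, with overlapping groups and a log2 fold change of -0.18 (95% interval -0.43 to 0.062, adjusted p = 0.246, same test). It shares 319 exon bases with TEAD2 and 132 with CTC-301O7.4 on the opposite strand. CD53 had 21, 31 and 44 counts in control and 33, 30 and 17 in 25(OH)D, a log2 fold change of -0.15 (95% interval -0.98 to 0.67, adjusted p = 0.797), and it shares no exon base with another gene. The 9 leukocyte markers had a summed level of 6.18 to 7.64 CPM in control and 15.6 to 20.4 CPM in 25(OH)D, of which CD68, a lysosomal protein common to macrophages and many other cells, made up most. CD68 rose with a log2 fold change of 1.69 (adjusted p = 8.16e-07), whereas the defining markers CD3E and MS4A1 had at most 3 counts in every library and PTPRC at most 0.17 CPM in any.

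Of the remaining tested members, only TSPAN13 passed the test. TSPAN13 (chromosome 7, 16753535 to 16784536, plus strand) was at 50.6, 52.7 and 49.7 CPM in control and 60.3, 56.5 and 61.0 CPM in 25(OH)D, a small rise with a log2 fold change of 0.22 (SE 0.0536, adjusted p = 0.00600, same test). TSPAN31, which lies beside CDK4 and is amplified with it in some sarcomas, was at 19.3, 17.5 and 21.0 CPM in control and 18.7, 18.0 and 19.1 CPM in 25(OH)D. Its groups overlapped, with a log2 fold change of -0.052 (95% interval -0.23 to 0.12, adjusted p = 0.671), and it shares 1369 exon bases with CDK4 on the opposite strand, which fell with -0.26. TSPAN3 was low, with 32, 39 and 46 counts in control and 24, 36 and 22 in 25(OH)D (log2 fold change -0.40, 95% interval -1.09 to 0.29, adjusted p = 0.378). TSPAN11 had 34, 6 and 23 counts in control and 14, 6 and 9 in 25(OH)D (log2 fold change -0.96, 95% interval -2.19 to 0.27, adjusted p = 0.227), and both intervals include changes of 2-fold.

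The 9 members that did not pass the filter had between 2 and 55 counts over the 6 libraries. TSPAN6 had the most, with 12, 10 and 2 counts in control and 6, 7 and 18 in 25(OH)D, and TSPAN18 had 6, 9 and 3 against 7, 2 and 4. TSPAN12, which assists Frizzled-4 signalling in retinal vessels, had 8, 0 and 0 against 6, 0 and 0. TSPAN8, of the digestive tract, had 2, 0 and 0 against 8, 0 and 2, and UPK1A, of the bladder lining, had 0, 0 and 2 against 6, 0 and 0. The urothelial marker KRT20 had at most 3 counts in every library. TSPAN16, PRPH2 and TSPAN7 had at most 3 counts in any library. No difference was detectable at this depth for these genes, where a count of 3 was worth between 0.0733 and 0.0902 CPM. A list of 6 other uroplakins and partners of photoreceptor discs was read beside UPK1A, PRPH2 and ROM1, and 2 of its genes were tested. UPK2 did not pass, with a log2 fold change of -0.090 (adjusted p = 0.800), and ABCA4, the retinoid transporter at the rims of photoreceptor discs, rose from 22, 20 and 26 counts in control to 1322, 1593 and 1304 in 25(OH)D, a log2 fold change of 6.08 (SE 0.115, adjusted p = 4.27e-14, same test).

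Grouping the members by chromosome was not a planned comparison, and it was made with earlier results of these data known. Chromosome 11 held 6 of the 29 members. All 5 of these that were tested (CD151, TSPAN4, CD81, CD82 and ROM1) rose, and TSPAN18, which lies 106101 bases from CD82, did not pass the filter. On the other chromosomes, 5 of 15 tested members rose and 3 fell. Among the 1001 tested genes of chromosome 11, 19.2% were higher and 15.1% lower, with a median log2 fold change of 0.029. The nearest of these members were CD151 and TSPAN4, with 2976 bases between them, and they share no exon base.

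Tetraspanins are modified by palmitate on cysteines beside the membrane and are sorted by adaptors and cytoskeletal linkers. Of 20 genes listed for these steps, 19 were tested, of which 5 were higher, 3 lower and 11 did not pass, with a median log2 fold change of 0.077. The share called was 42.1%, against 33.8% of all genes tested and 44.8% of those of at least 5 CPM. The higher members with the smallest p were FLNA, an actin crosslinker, with a log2 value of 0.34 (SE 0.0361, adjusted p = 4.11e-06), AP3B1, a subunit of the adaptor that takes cargo such as CD63 to lysosomes, with 0.33 (SE 0.0459, adjusted p = 5.60e-05), and RNF128, a ubiquitin ligase that acts on tetraspanins, with 0.52 (SE 0.0876, adjusted p = 3.38e-04), all from the same test. The 3 lower members were RDX and EZR, which encode the membrane-actin linkers radixin and ezrin, with log2 values of -0.53 (adjusted p = 1.86e-05) and -0.17 (adjusted p = 0.00219), and MARCH1, a membrane-bound ubiquitin ligase, with -0.87 (adjusted p = 0.0390). MARCH1 had 18 to 60 counts, and its call was lost in 5 of 6 fits without 1 library (adjusted p up to 0.145), all but that without 25(OH)D replicate 1, and in 4 of 12 other alternatives. None of these 6 is a palmitoyl transferase. The remaining higher members, LYPLA2 and LYPLA1, were named after their values were seen. Their log2 values were 0.44 (adjusted p = 5.46e-04) and 0.27 (adjusted p = 0.0191), by the same test. The LYPLA1 call was lost in 2 of 6 fits without 1 library and in 2 of 12 other alternatives.

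**Figure D5:**
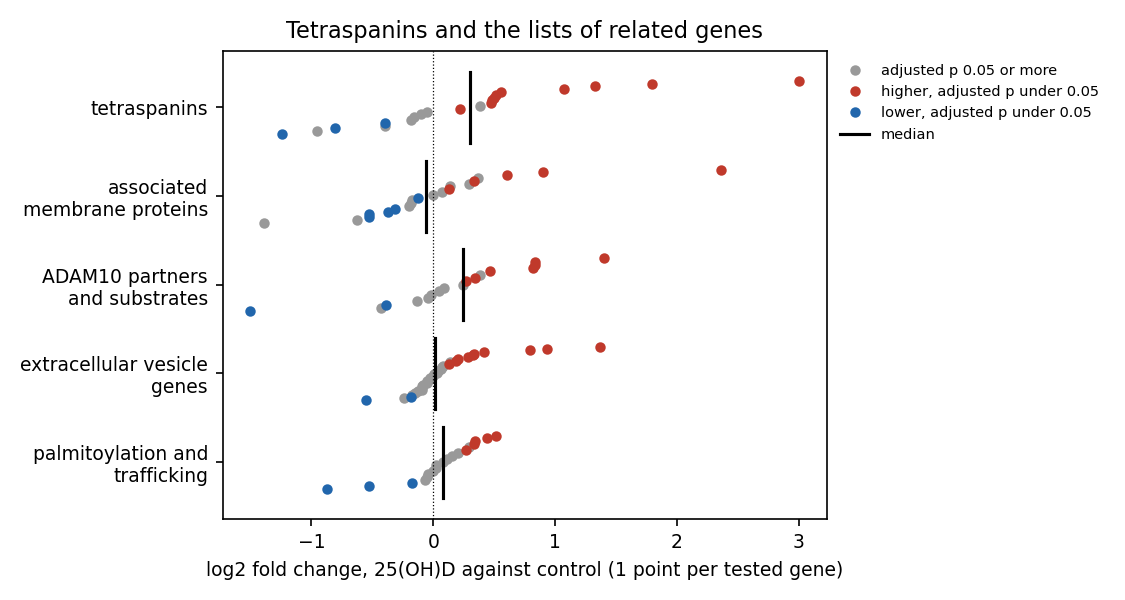
Log2 fold change of 25(OH)D against control for the tested tetraspanin genes and the tested genes of 4 lists of related genes, with 1 point for each gene and a black line at the median. The median of the tetraspanins is 0.30, that of the ADAM10 list 0.25, and those of the other 3 lists are between -0.061 and 0.077.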

How the data were processed

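RNA of MDA-MB-453 cells was sequenced as paired reads from stranded mRNA libraries, 3 for control and 3 for 25(OH)D. The study's methods call the libraries biological replicates, and the labels do not say whether the 3 of a group were separate cultures. If they were not, p-values measure only the spread between these libraries. The authors deposited counts, raw whole numbers of reads for each gene, and RPKM, which equals each count divided by gene length and library total (largest relative difference 2.23e-13). The submitters' processing notes name Trimmomatic 0.36, featureCounts (Subread 1.5.1), edgeR 3.12.1 and GRCh38. The aligner, the annotation release and the strand setting are not given in the sources used here. Between 66.8% and 69.8% of genes with 1 to 10 counts had an even count in a library, against 49.7% to 52.0% of genes with high counts, so counts at this level may hold both mates of a pair.

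For the deposited counts, edgeR 4.0.16 was used under R 4.3.3, with the package's low-count filter (minimum count 10), TMM factors and the quasi-likelihood test without covariates. The 3 libraries of a group were not duplicates of each other (chi-square per gene between 4.01 and 12.1). CPM are scaled by the TMM factors, also for the means of the marker GATA3. The exceptions are the summed levels of cell type markers, the values of PIP and PTPRC, and counts of 3, which use the library totals. Positions and overlaps came from GENCODE 29 (GRCh38), whose coordinates equal those deposited for 28 of the 29 members, all but CD53. Promoters were those of RefSeq. The test was checked on simulated data, where it recovered 35 of 50 genes changed 1.5-fold and 47 of 50 changed 2-fold. All 50 changed 4-fold and all 50 changed 8-fold were recovered, and 24 unchanged genes were called among 17898 tested. A member that did not pass may therefore still hold a change of 1.5-fold, and the check sets no upper bound on it. The changed genes were drawn from those with a mean over 1 CPM, so the check does not cover members below that level. Among members that did not pass, the 95% intervals of the log2 fold change reached 0.82 for TSPAN5 and -0.98 for CD53. They reached -1.09 for TSPAN3 and -2.19 for TSPAN11, and those of CD37, TSPAN17 and TSPAN31 were narrower. Alternatives used limma 3.58.1, DESeq2 1.42.0, other factors, filters and units, and fits without 1 library. The remaining steps used Python 3.11.15.

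The members, the 5 lists of related genes and the markers were chosen with earlier results of these data known. Each tested member is named with its values, and from each list the up to 3 genes with the smallest adjusted p under 0.05 in each direction. Protein features were planned and are not analysed here. A few markers and list genes are not reported here and were left out of the lists and their sums.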

Additional observations from a re-analysis of the deposited data

How the results depend on the processing

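The results were recomputed under 18 alternatives, of which 6 left out 1 library each and 1, halving the counts, was chosen after seeing the data. Of 356 values for single tetraspanin genes, 348 kept their direction and their side of the threshold. The direction turned for CD53 without 25(OH)D replicate 3 (0.051) and without control replicate 3 (0.19), and for TSPAN31 without control replicate 3 (0.020), over a range from -0.42 to 0.19 for CD53 and from -0.11 to 0.020 for TSPAN31 with 1 library left out, and neither gene passed the test in any of these. TSPAN5 passed with no low-count filter (log2 fold change 0.39, adjusted p = 0.00313 by edgeR) and without control replicate 1. TSPAN33 lost its call without 25(OH)D replicate 1 (-0.65), without 25(OH)D replicate 3 (-0.73) and without control replicate 2 (-0.73). The number of tetraspanins lower at the limits was 0 with limma on log2(RPKM + 1), where TSPAN9 stood at -0.92, and between 1 and 2 with 1 library left out, where TSPAN33 was added without 25(OH)D replicate 2 and TSPAN11 without control replicate 2. The number higher at the limits was 3 with limma on log2(RPKM + 1) and log2(RPKM + 0.1), where TSPAN4 stood at 0.62 and 0.98, and without control replicate 1. The number of vesicle genes lower was 4 with library sizes alone and 4 with upper-quartile factors, and between 1 and 3 with 1 library left out. The cause of these shifts was not tested. With the replicate number as a block, 10 tetraspanins were higher and 3 lower, and 3057 and 2896 of all genes. Same-numbered libraries did not deviate together (correlations of -0.072, -0.012 and -0.046), so the numbers give no pairing, and the block changed no call on a tetraspanin. Of the list genes called, ITGA3 (adjusted p = 0.0588) and MARCH1 (adjusted p = 0.0523) lost their calls under the block, and MARCH1 also with DESeq2 (0.105) and with limma on both RPKM scales (0.122 and 0.0686). TSPAN3, TSPAN11 and CD53 have no value under a filter of at least 1 CPM in 3 libraries, nor TSPAN11 with halved counts. Where both mates of a pair were counted, the counting error of genes with few reads may be understated. With halved counts, 10 tetraspanins were higher and 3 lower, the same numbers as in the main fit.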
